A study of Rattus norvegicus with 10 samples.

Results

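The Slc25 family of mitochondrial carriers was followed in fetal rat heart RNA under maternal hyperglycemia. Members were all genes whose symbol begins with Slc25a in the annotated FPKM table of the series (FPKM counts fragments per kilobase of transcript, scaled to the depth of each library). Of the 18025 genes listed, 47 carried such a symbol, and 43 of these averaged 0.1 FPKM or more across the 10 libraries and were tested among 14542 genes in all. At the edge of this filter, Slc25a53 was just inside with a mean of 0.109 FPKM and Slc25a47 just outside with 0.0504 FPKM. The symbols Slc25a31, Slc25a41 and Slc25a51 were not in the list, although the gene that is Slc25a51 in RefSeq was listed under its older symbol Mcart1 and was therefore not counted.

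All samples were wild-type hearts of Sprague-Dawley rat fetuses at embryonic day 19.5. The labels name heart, while a figure legend of the study speaks of isolated cardiomyocytes. The 5 CON libraries came from fetuses of dams given citrate buffer. The 5 HG libraries came from fetuses of dams made diabetic with streptozotocin, a toxin of pancreatic beta cells, injected on 3 days at 3 months of age, with blood glucose above 16 mM required 7 days later. The sources place the injections either before pregnancy or after the vaginal plug, so an exposure of the embryos to streptozotocin itself cannot be told apart from maternal hyperglycemia. The labels do not say which fetuses shared a dam and part of the study's text speaks of pooled RNA, so p-values measure only the spread between these libraries.

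Carriers of the Slc25 family are small proteins, most of them in the inner mitochondrial membrane, that exchange nucleotides, phosphate, carboxylates, amino acids and cofactors between the cytosol and the matrix. In heart muscle the ADP/ATP and phosphate carriers feed ATP synthase and export its product. The malate-aspartate shuttle brings reducing equivalents from glycolysis into the matrix, and the carnitine/acylcarnitine carrier brings in fatty acids. In the annotation of the deposited table, 27 of the 47 symbols carried the term mitochondrial inner membrane.

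Between 17639895 and 18240006 reads lay on genes in the CON libraries and between 16672876 and 19109844 in the HG libraries (exact permutation test, two-sided, p = 0.77). The share of summed FPKM on hemoglobin genes was 3.27% ± 0.873 in CON against 2.24% ± 0.264 in HG (SD over 5 libraries, p = 0.0317 by the same exact test). Summed FPKM was 465600 ± 7799 in CON and 453300 ± 4797 in HG (SD, p = 0.0159 by this exact test). Genes above 0 numbered 16041 to 16174 in CON and 16115 to 16313 in HG (p = 0.0317 by this exact test). The tissue label was borne out by markers of cardiomyocytes such as Tnnt2, at 3953 FPKM in CON, and endothelial Pecam1 was present at 64.9 FPKM. CON 3 stood apart: the summed FPKM of 7 liver markers was 80.7 there, 3.15 to 8.74 in the other CON libraries and 1.33 to 2.71 in HG. Without CON 3, 8 carriers were higher and 14 lower in HG, against 8 and 15 with it; Slc25a33 and Slc25a36l1 were lost and Slc25a14 was gained.

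Of the 43 carriers tested, 23 passed an adjusted p under 0.05 in limma (Benjamini-Hochberg over all genes tested), 15 lower and 8 higher in HG. The background was wide: 40.1% of all genes passed, 11.8% lower and 28.4% higher, against 34.9% lower and 18.6% higher among the carriers. The same shares of all genes, 11.8% lower and 28.4% higher, are the background of every count by level, substrate or list below. The median log2 fold change (HG minus CON) was -0.0082 over the carriers and 0.093 over all genes. The 5 CON and 5 HG values did not overlap for 12 of the lower carriers, where 8.12% of all genes were lower without overlap, and for 5 of the higher ones, where 19.3% of all genes were higher without overlap. A change of more than 2-fold was seen for 1 carrier, Slc25a52, against 1.94% of all genes. With median-of-ratios scaling the split of all genes moved to 17.5% lower and 15.7% higher and that of the carriers to 17 lower and 6 higher, and 21 of the 23 carriers kept both their call and their direction.

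Most cardiomyocyte markers were lower in the HG group, as the lower carriers were. Of 10 markers, 8 were lower and 1 (Nppa) higher in HG, and their summed level ran from 18180 to 19500 FPKM in CON and from 15150 to 18100 FPKM in HG. The sum was 18100 FPKM in HG 4 and 18180 in CON 4, where Slc25a4 was at 1405 and 1920 FPKM. HG 4 was the highest HG library both for the sum and for Slc25a4. Smooth muscle and pericyte markers summed to 762 to 885 FPKM in CON and 976 to 1228 FPKM in HG, with 3 of 6 higher and 1 lower. Acta2, Tagln and Cnn1 were higher, Rgs5 was lower, and Myh11 and Pdgfrb did not pass. Acta2 made up most of the sum, with means of 538 FPKM in CON and 673 FPKM in HG. Of 7 endothelial markers 2 were higher and none lower, and of 7 fibroblast markers 2 were higher and 3 lower. The share of higher genes was 28.6% in both of these lists, near the 28.4% of all genes, and 11.8% of all genes were lower. In bulk RNA, fewer cells of a type and less RNA per cell cannot be told apart, and the part of cell composition in the carrier results was not tested.

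**Figure D1:**
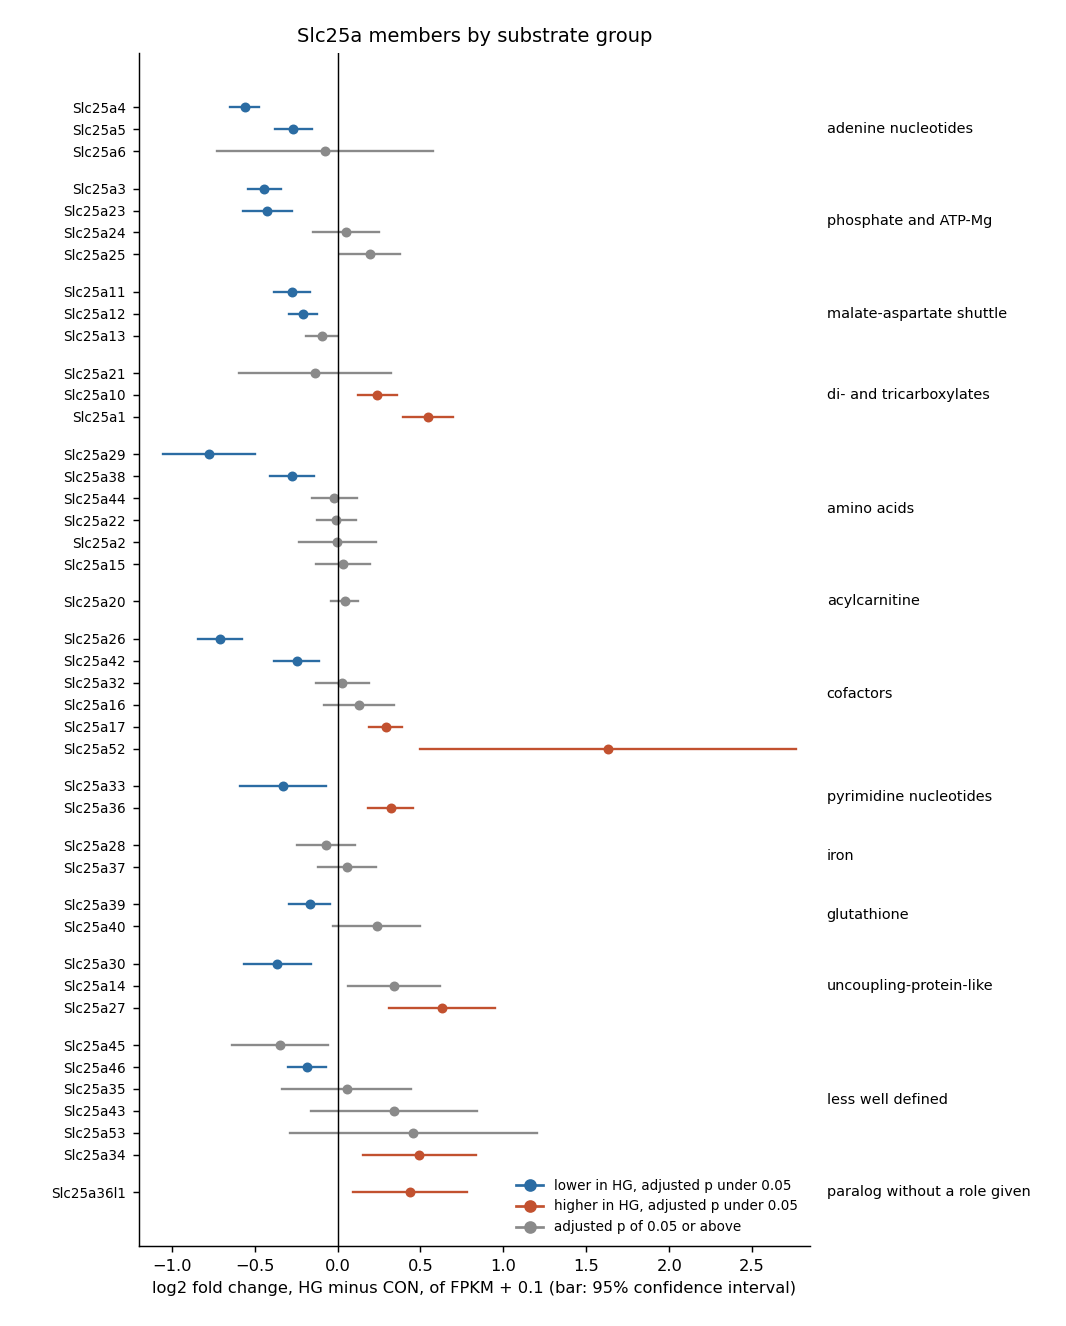
Log2 fold change (HG minus CON) of the carriers reported by name on the horizontal axis, with the 95% confidence interval as a bar, grouped by substrate. Blue points were lower and red points higher in HG at an adjusted p under 0.05, and grey points did not pass. The widest interval of a carrier that passed belongs to Slc25a52.

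Expression within the family was steeply graded. Slc25a4 averaged 1641 FPKM over all libraries and made up 46.9% of the family's summed FPKM, Slc25a3 24.2%, Slc25a5 11.7% and Slc25a11 5.63%. All 4 of these carriers, the only ones above 100 FPKM, were lower in HG. Of the 12 carriers between 10 and 100 FPKM, 5 were lower and 3 higher. Of the 20 between 1 and 10 FPKM, 6 were lower and 4 higher, and of the 7 below 1 FPKM only Slc25a52 passed. Among all genes, 11.8% were lower and 28.4% higher. The summed FPKM of the 47 symbols was 3951 to 4085 in CON and 2870 to 3146 in HG, or 0.837% to 0.88% and 0.642% to 0.684% of all FPKM. Slc25a4 alone took 48.3% to 49.6% of the family's FPKM in CON and 43.5% to 45.8% in HG.

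**Figure D2:**
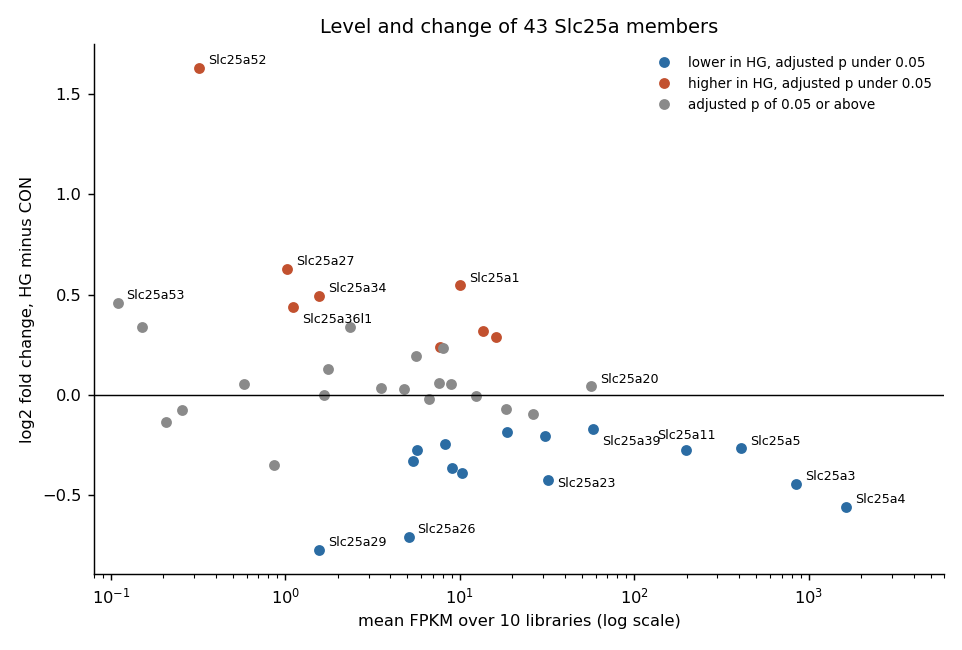
Mean FPKM over the 10 libraries (horizontal, log scale) against the log2 fold change, HG minus CON (vertical), with 1 point for each of the 43 carriers. The 4 most abundant carriers lie below 0, while carriers between 1 and 10 FPKM lie on both sides, from -0.77 for Slc25a29 to 0.63 for Slc25a27.

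Slc25a4 (NCBI gene 85333), the ADP/ATP carrier of heart and muscle, also called ANT1, fell by 32.1%. It was measured at 2011, 1916, 1987, 1920 and 1937 FPKM in CON 1 to CON 5 and at 1304, 1350, 1331, 1405 and 1247 FPKM in HG 1 to HG 5. The lowest CON library lay far above the highest HG library, and the spread within each group was small. The means were 1954 ± 42.5 and 1327 ± 58.2 FPKM (SD, n = 5), a log2 fold change of -0.56 with a standard error of 0.041 (limma, adjusted p = 1.81e-06).

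Slc25a5 (NCBI gene 25176), the ADP/ATP carrier typical of dividing cells, or ANT2, also fell, by a smaller share. Its values were 453, 428, 462, 439 and 453 FPKM in CON and 399, 369, 368, 398 and 327 FPKM in HG. The groups did not overlap, and HG 5 was the lowest library for this gene as it was for Slc25a4. The log2 fold change was -0.27 ± 0.052 (SE, limma, adjusted p = 0.00169). The third ADP/ATP carrier, Slc25a6, was measured at 0.0907 to 0.44 FPKM in CON and 0.136 to 0.433 FPKM in HG, with an adjusted p of 0.863. Reads of these closely similar genes may be shared, and how the authors' counting treated shared reads is not given in the sources used here.

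Slc25a3 (NCBI gene 245959), which imports the phosphate used by ATP synthase, fell by 26.3%. It stood at 946, 1006, 999, 972 and 956 FPKM in CON and at 691, 746, 655, 761 and 742 FPKM in HG. No HG library came near the CON range. This gave a log2 fold change of -0.44 ± 0.046 (SE, limma, adjusted p = 2.2e-05).

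The ATP-Mg/phosphate carriers, which are regulated by calcium and set the adenine nucleotide content of the matrix, included 1 that passed among the 3 tested. Slc25a23 fell, from 40, 34.7, 37.5, 33.8 and 37.5 FPKM in CON to 24.9, 30.7, 24.3, 29.2 and 27.7 FPKM in HG. No overlap was seen between the groups, and the log2 fold change was -0.42 ± 0.069 (SE, limma, adjusted p = 0.000492). Slc25a24 was at 8.69 ± 0.58 FPKM in CON against 9.07 ± 1.43 FPKM in HG (SD, n = 5, adjusted p = 0.688). Slc25a25 was at 5.22 ± 0.422 and 6.01 ± 0.652 FPKM (adjusted p = 0.0803).

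Promoters of the most abundant carriers and of Slc25a1, the most raised carrier above 10 FPKM, are shown because these genes moved in opposite directions. Each is the stretch of 250 bases before the annotated start, 5′ to 3′ on the gene's strand, from RefSeq on build GRCr8, which is not the build named in the labels. Capitals mark matches to 7 motifs searched on both strands, none of which overlapped another in these promoters.
Slc25a4, chr16:52805271-52805520, plus strand: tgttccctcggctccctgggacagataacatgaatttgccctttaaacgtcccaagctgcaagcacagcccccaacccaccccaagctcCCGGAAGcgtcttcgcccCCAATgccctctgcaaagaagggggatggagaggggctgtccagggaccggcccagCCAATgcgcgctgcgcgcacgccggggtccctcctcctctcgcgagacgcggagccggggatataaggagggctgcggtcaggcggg
Slc25a3, chr7:27506628-27506877, minus strand: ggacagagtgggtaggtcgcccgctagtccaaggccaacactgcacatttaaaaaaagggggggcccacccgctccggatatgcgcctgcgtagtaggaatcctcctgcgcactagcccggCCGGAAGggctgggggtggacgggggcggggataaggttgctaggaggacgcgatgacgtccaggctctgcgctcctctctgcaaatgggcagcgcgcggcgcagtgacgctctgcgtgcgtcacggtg
Slc25a5, chrX:120897366-120897615, plus strand: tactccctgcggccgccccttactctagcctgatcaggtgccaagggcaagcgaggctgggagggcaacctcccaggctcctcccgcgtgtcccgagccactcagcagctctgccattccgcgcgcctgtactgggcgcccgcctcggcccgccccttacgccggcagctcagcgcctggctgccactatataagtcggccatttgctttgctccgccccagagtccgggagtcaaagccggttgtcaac
Slc25a1, chr11:96559804-96560053, plus strand: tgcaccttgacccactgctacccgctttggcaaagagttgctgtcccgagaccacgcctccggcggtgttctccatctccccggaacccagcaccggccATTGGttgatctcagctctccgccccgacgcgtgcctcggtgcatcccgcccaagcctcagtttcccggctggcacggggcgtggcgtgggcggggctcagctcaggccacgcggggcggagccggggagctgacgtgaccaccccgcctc

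These promoters were GC-rich, at 65.2% to 69.6% G or C. That of Slc25a4 held the letters CCGGAAG, bound by ETS factors, and CCAAT, bound by NF-Y, the latter at 2 places. That of Slc25a3 held CCGGAAG, that of Slc25a1 held CCAAT on the other strand, and that of Slc25a5 held none of the 7 motifs. A promoter was found for 38 of the 47 symbols, including 16 of the 23 that passed. CCAAT, on either strand, was in 6 of 11 lower and 5 of 5 higher carriers and in 8 of 18 that did not pass, against 34% of all 33469 promoters. CCGGAAG was in 3 of 11 lower, 0 of 5 higher and 2 of 18 other carriers, against 7.27% of all. The other motifs were the E-box CACGTG (5.59% of all promoters), AAGGTCA of estrogen-related receptors (3.99%), GCATGCGC of NRF1 (2.2%), AANATGGC of YY1 (4.23%) and the sterol element TCACNCCAC (0.974%), each in no more than 1 promoter of the carriers that passed. No measurement at promoters was analysed here, and a match describes letters only.

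Of 3 carriers of the malate-aspartate shuttle, 2 were lower in HG and none higher. Slc25a11 (NCBI gene 64201), which exchanges 2-oxoglutarate for malate, was measured at 223, 202, 224, 217 and 212 FPKM in CON and 179, 188, 172, 191 and 162 FPKM in HG. CON and HG libraries did not overlap, and the log2 fold change was -0.27 ± 0.049 (SE, limma, adjusted p = 0.000943). Slc25a12, the aspartate/glutamate carrier known as aralar, fell from 31.3, 34, 33.9, 32.7 and 33.9 FPKM to 28.6, 30.7, 28.2, 27.8 and 28.2 FPKM. The highest HG library, HG 2, came close to the lowest CON library, CON 1, without overlap. Its log2 fold change was -0.21 ± 0.04 (SE, limma, adjusted p = 0.00143).

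Slc25a13, or citrin, the aspartate/glutamate carrier best known from liver, did not pass. Its values were 28, 27.7, 25.5, 26 and 27.9 FPKM in CON and 24, 25.2, 25.2, 27 and 25.1 FPKM in HG, with overlap and a log2 fold change of -0.095 (95% confidence interval -0.19 to -0.00079, adjusted p = 0.101). Under median-of-ratios and quantile scaling, and without HG 4, it passed as lower. The 4 soluble enzymes of the shuttle, which interconvert malate, oxaloacetate, aspartate and glutamate on both sides of the membrane, were all lower. Their log2 fold changes were -0.42 for Mdh1, -0.38 for Mdh2, -0.31 for Got1 and -0.28 for Got2. Among all genes, 11.8% were lower.

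Of 3 carriers of di- and tricarboxylates, 2 rose and none fell. Slc25a1 (NCBI gene 29743), which exports citrate to the cytosol, where it supplies acetyl groups for lipid synthesis, rose by 46.8%. It was measured at 7.49, 7.81, 8.69, 8.56 and 8.12 FPKM in CON and at 13.6, 12.2, 11.3, 12 and 10.6 FPKM in HG. The groups were well separated, with HG 1 the highest library. The log2 fold change was 0.55 ± 0.069 (SE, limma, adjusted p = 8.97e-05).

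Slc25a10, the dicarboxylate carrier, which exchanges malate or succinate for phosphate, rose by 18.5%. Its values were 6.98, 7.47, 6.94, 6.87 and 6.91 FPKM in CON and 8.49, 8.72, 8.76, 7.99 and 7.68 FPKM in HG. Every HG library was above every CON library, although CON 2 and HG 5 were close. This gave a log2 fold change of 0.24 ± 0.053 (SE, limma, adjusted p = 0.00364). Slc25a21, a carrier of oxodicarboxylates, was at 0.22 ± 0.0477 FPKM in CON against 0.196 ± 0.073 FPKM in HG (SD, n = 5, adjusted p = 0.645).

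**Figure D3:**
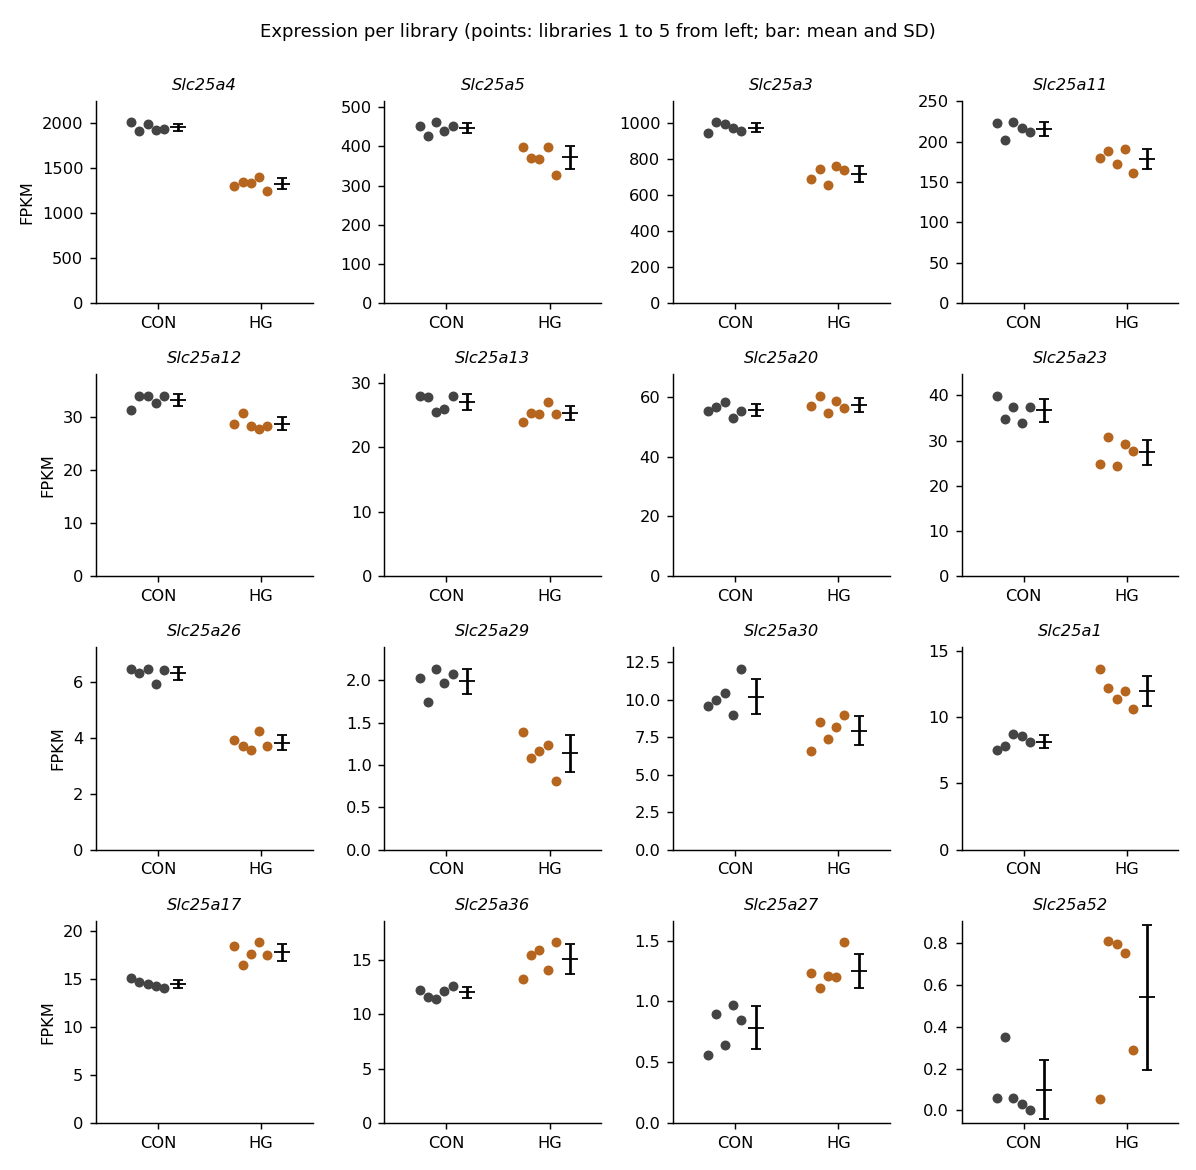
FPKM of 16 carriers in each library (points, CON in grey and HG in orange) with the mean and SD of each group. The axes start at 0, except for Slc25a52, whose CON bar reaches below 0. Slc25a4 separates the groups by the widest margin in FPKM, at 1916 to 2011 in CON and 1247 to 1405 in HG. The groups overlap for Slc25a13, Slc25a20, Slc25a30 and Slc25a52.

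Of 6 amino acid carriers tested, 2 fell and none rose. Slc25a29, a carrier of basic amino acids, had the largest decrease of the family. It went from 2.03, 1.75, 2.14, 1.97 and 2.08 FPKM in CON to 1.39, 1.08, 1.17, 1.23 and 0.812 FPKM in HG, on 28 to 78 reads a library. All CON and HG values were apart, and the log2 fold change was -0.77 ± 0.13 (SE, limma, adjusted p = 0.000539).

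Slc25a38, which imports glycine for heme synthesis, fell from 6.23 ± 0.464 to 5.12 ± 0.112 FPKM (SD, n = 5, log2 fold change -0.28, limma, adjusted p = 0.0033). Its groups did not overlap. The summed level of 19 red cell markers was 10600 to 20030 FPKM in CON and 8359 to 11710 FPKM in HG. Of these markers 10 were lower (52.6%) and 3 higher (15.8%), beside 11.8% and 28.4% of all genes. The part of red cells in the Slc25a38 result was not tested. Slc25a2, Slc25a15, Slc25a22 and Slc25a44, carriers of ornithine, citrulline, glutamate and branched-chain amino acids, had log2 fold changes between -0.02 and 0.033 and did not pass.

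Slc25a20 (NCBI gene 117035), the carnitine/acylcarnitine carrier that admits long-chain fatty acids to oxidation, did not pass. It stood at 55.2, 56.7, 58.1, 52.8 and 55.2 FPKM in CON and at 56.7, 60.4, 54.4, 58.5 and 56.3 FPKM in HG. The groups overlapped over most of their range. In limma, the log2 fold change was 0.043 (95% confidence interval -0.04 to 0.13, adjusted p = 0.404), and it changed sign to -0.047 under median-of-ratios scaling. Among the enzymes that work with it, Cpt1b, the muscle form of carnitine palmitoyltransferase 1, was lower (log2 fold change -0.3, adjusted p = 5.09e-05), as was Crat (-0.19, adjusted p = 0.0177). Cpt1a, the form dominant in liver, was higher (0.15, adjusted p = 0.00754), and Cpt2 and Slc22a5 did not pass. In these hearts Cpt1b was the more abundant, at 155.9 FPKM in CON and 126.8 in HG against 29.25 and 32.58 for Cpt1a.

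Cofactor carriers moved in both directions, with 3 of 7 lower and 2 higher. Slc25a26, which imports S-adenosylmethionine, the methyl donor of mitochondrial RNA and protein methylation, fell by 39.4%. Its values were 6.48, 6.32, 6.47, 5.93 and 6.44 FPKM in CON and 3.91, 3.73, 3.57, 4.26 and 3.72 FPKM in HG. The groups were far apart relative to their spread. The log2 fold change was -0.71 ± 0.062 (SE, limma, adjusted p = 6.29e-06).

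Slc25a42, a coenzyme A carrier, fell from 8.88 ± 0.253 to 7.49 ± 0.693 FPKM (SD, n = 5, log2 fold change -0.25, limma, adjusted p = 0.00836). Slc25a16, also assigned to coenzyme A, was at 1.68 ± 0.225 and 1.83 ± 0.0824 FPKM and did not pass (adjusted p = 0.327), nor did the folate or FAD carrier Slc25a32 (adjusted p = 0.788).

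Slc25a17, a carrier of the peroxisomal membrane and so outside mitochondria, rose. It went from 15.1, 14.7, 14.4, 14.3 and 14 FPKM in CON to 18.5, 16.5, 17.6, 18.8 and 17.5 FPKM in HG. The groups did not overlap, and the log2 fold change was 0.29 ± 0.045 (SE, limma, adjusted p = 0.000358).

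Slc25a52, an NAD carrier, had the largest fold change but rested on few reads, from 0 to 28 a library. It was listed at 0.0587, 0.349, 0.0602, 0.0292 and 0 FPKM in CON and at 0.0556, 0.809, 0.796, 0.752 and 0.287 FPKM in HG. HG 1 lay within the CON range and CON 2 above HG 5, so the groups overlapped. The log2 fold change on FPKM + 0.1 was 1.63 ± 0.52 (SE, limma, adjusted p = 0.0257), and it missed the threshold without CON 4, CON 5, HG 2, HG 3 or HG 4, with adjusted p up to 0.0647. Its CON mean was below the 0.1 FPKM filter, which it met through HG, as did Slc25a53, at 0.0775 FPKM in CON and 0.141 in HG. Its near relative Mcart1 (Slc25a51), the main mitochondrial NAD carrier, was at 16.5 ± 0.933 FPKM in CON against 16.6 ± 1.01 FPKM in HG (SD, n = 5, log2 fold change 0.012, adjusted p = 0.88). The 2 genes are close in sequence, so reads may be shared between them.

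Of the carriers of pyrimidine nucleotides, 1 rose and 1 fell. Slc25a36 rose from 12.3, 11.6, 11.5, 12.2 and 12.6 FPKM in CON to 13.2, 15.5, 16, 14.1 and 16.7 FPKM in HG. No overlap was seen between the groups (log2 fold change 0.32 ± 0.063, SE, limma, adjusted p = 0.00175). Slc25a33 was at 6.3, 6.17, 6.1, 6.11 and 5.26 FPKM in CON and 6.2, 4.94, 4.27, 3.58 and 5.05 FPKM in HG. HG 1 was within the CON range, and CON 5 was the lowest CON library.

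Slc25a33 passed narrowly as lower (log2 fold change -0.33 ± 0.12, SE, limma, adjusted p = 0.044). Its call was lost on leaving out any of CON 1 to CON 4 or of HG 2 to HG 5, with adjusted p up to 0.0985. The call was also lost with no filter on low values (adjusted p = 0.0627), with hemoglobin genes left out (0.0592), in limma without the trend (0.0649) and with voom, limma's count model, on the recovered reads (0.0529). Slc25a36l1, a gene named as a relative of Slc25a36, was listed at 1.02, 1.07, 0.975, 0.782 and 0.737 FPKM in CON and 1.27, 1.23, 0.889, 1.41 and 1.64 FPKM in HG. The groups overlapped through HG 3. Its log2 fold change was 0.44 ± 0.16 (SE, limma, adjusted p = 0.0429), lost without CON 1, CON 3, CON 4, CON 5, HG 1, HG 2, HG 4 or HG 5, with adjusted p up to 0.1003. It was also lost with median-of-ratios (adjusted p = 0.103) and quantile scaling (0.083), with voom (0.0867) and with no filter on low values (0.064). Reads of Slc25a36 and Slc25a36l1 may be shared.

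The iron carriers, mitoferrins, did not pass. Slc25a37, the form of red cell precursors, was at 7.48 ± 0.827 FPKM in CON against 7.78 ± 0.666 FPKM in HG (adjusted p = 0.591), and Slc25a28, the form of most tissues, at 18.8 ± 1.42 and 18 ± 2.09 FPKM (SD, n = 5, adjusted p = 0.509). Of the glutathione carriers, Slc25a39, the more abundant, was lower in HG at 54.7 ± 4.12 against 61.5 ± 3.98 FPKM in CON (log2 fold change -0.17, limma, adjusted p = 0.0341). Its groups overlapped, and the call was lost without CON 1, CON 2, HG 3, HG 4 or HG 5, with adjusted p up to 0.0836, with hemoglobin genes left out (0.0528) and in limma without the trend (0.0635). Slc25a40 was at 7.38 ± 1.16 FPKM in CON against 8.72 ± 1.39 FPKM in HG and did not pass (adjusted p = 0.141), but passed as higher without CON 4 or without HG 1.

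The carriers named for their likeness to uncoupling proteins also split. Slc25a27, or UCP4, best known from neurons, rose from 0.561, 0.899, 0.642, 0.973 and 0.845 FPKM in CON to 1.24, 1.11, 1.21, 1.2 and 1.49 FPKM in HG. CON and HG libraries did not overlap (log2 fold change 0.63 ± 0.15, SE, limma, adjusted p = 0.00509), on 70 to 171 reads a library. Slc25a30 fell, from 9.59, 10, 10.5, 8.95 and 12.1 FPKM to 6.6, 8.54, 7.35, 8.16 and 9.01 FPKM, with CON 4 just under HG 5. Its log2 fold change was -0.36 ± 0.094 (SE, limma, adjusted p = 0.00905).

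Slc25a14, or UCP5, just missed the threshold at 2.08 ± 0.369 and 2.65 ± 0.375 FPKM (SD, n = 5, log2 fold change 0.34, adjusted p = 0.0505). Among family members with other symbols, Ucp2 was measured at 146 ± 7.51 FPKM in CON against 192 ± 13.2 FPKM in HG (log2 fold change 0.39, limma, adjusted p = 9.86e-05). Ucp1 and Ucp3 were below the filter, and Mtch1 and Mtch2, outer membrane relatives of the carriers, did not pass.

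Of 6 tested carriers with a less well defined substrate, Slc25a34 was higher and Slc25a46 lower. Slc25a34 was listed at 0.966, 1.23, 1.27, 1.65 and 1.24 FPKM in CON and 1.6, 2.05, 2.41, 1.4 and 1.75 FPKM in HG. CON 4 lay among the HG values. This gave a log2 fold change of 0.49 ± 0.16 (SE, limma, adjusted p = 0.0254), lost without CON 1, HG 2 or HG 3 and with both other scalings. Slc25a46, an outer membrane protein of mitochondrial dynamics, went from 19.9 ± 1.24 to 17.4 ± 0.964 FPKM (SD, n = 5, log2 fold change -0.19, limma, adjusted p = 0.0151), with no overlap. Slc25a35, Slc25a43, Slc25a45 and Slc25a53 did not pass, Slc25a45 with an adjusted p of 0.0531.

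Of the 4 carriers below the filter, Slc25a18, a glutamate carrier, was listed at 0 to 0.0255 FPKM in CON 1, CON 2, CON 4 and CON 5, at 0.211 FPKM in CON 3 and at 0 to 0.0557 FPKM in HG. Slc25a47, a carrier known from liver, had its highest value in CON 3, at 0.146 FPKM against 0 to 0.0707 FPKM elsewhere. Slc25a48 too was highest there, at 0.0712 FPKM, and Slc25a54 was above 0 only in HG 1. CON 3 is the library with the high liver markers, and the part of liver RNA in these values was not tested.

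To compare related carriers independently of scaling, the ratio of their FPKM was taken within each library for 7 pairs, with p-values adjusted over the 7. The ratio of Slc25a4 to Slc25a5 was 4.44, 4.48, 4.3, 4.37 and 4.28 in CON and 3.27, 3.66, 3.62, 3.53 and 3.81 in HG. All CON and HG values were apart, and their exact permutation p of 0.00794 (two-sided) is the smallest that 5 against 5 allows. The difference in log2 ratio was -0.29, and the adjusted p of 0.0556 missed the threshold. With 7 pairs, a pair that alone reaches the smallest exact p cannot be adjusted below 0.0556, whatever the size of its change. The adjusted p therefore cannot decide the question for this pair.

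The ratio of Slc25a33 to Slc25a36 was 0.499 ± 0.0474 in CON against 0.323 ± 0.0853 in HG (SD, n = 5, exact permutation p = 0.0159, adjusted p = 0.0556). That of the coenzyme A carriers Slc25a42 and Slc25a16 was 5.37 ± 0.748 and 4.1 ± 0.465 (exact permutation p = 0.0238, adjusted p = 0.0556). The adjusted p was 0.111 for Slc25a39 over Slc25a40 and for Slc25a12 over Slc25a13, 0.417 for Slc25a37 over Slc25a28 and 0.476 for Slc25a25 over Slc25a24. With all libraries, then, no pair passed. Without CON 5 the adjusted p was 0.037 for the pairs led by Slc25a4, Slc25a33 and Slc25a42. CON 5 was the lowest CON library in each of these ratios, at 4.28, 0.418 and 4.29, and so the nearest to HG.

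**Figure D4:**
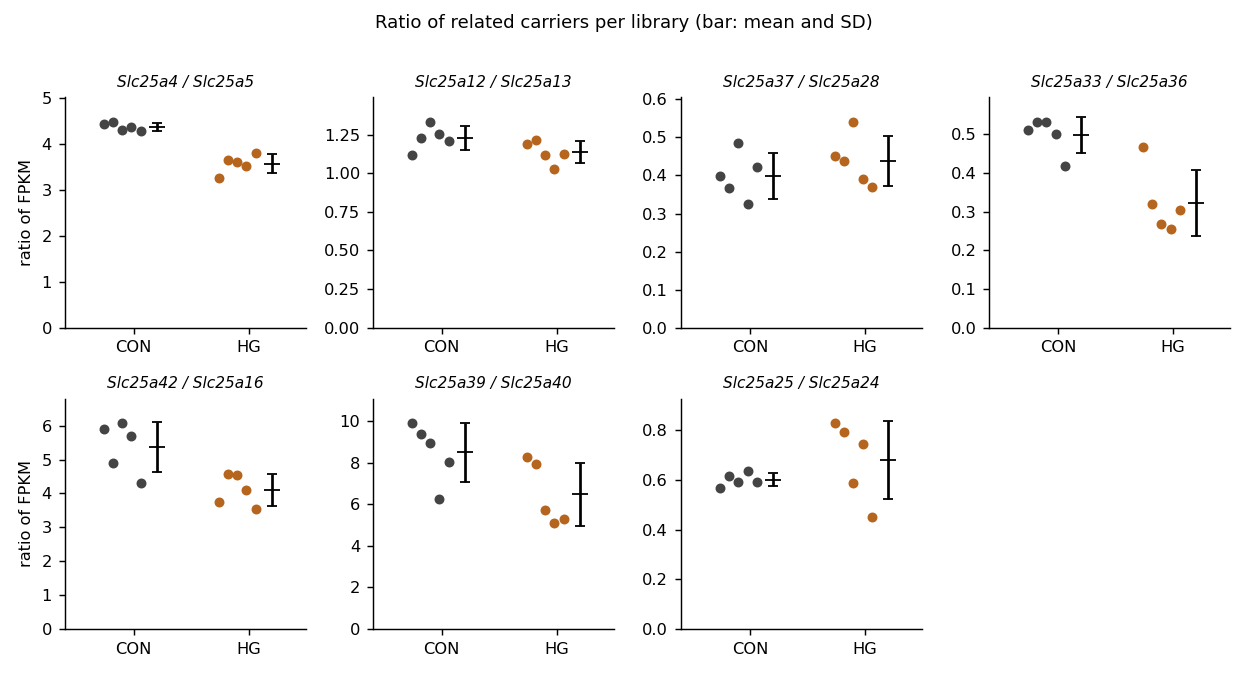
Ratio of FPKM of 7 pairs of related carriers in each library (points, CON in grey and HG in orange), with the mean and SD of each group and axes from 0. The ratio of Slc25a4 to Slc25a5 separates the groups completely, at 4.28 to 4.48 in CON and 3.27 to 3.81 in HG.

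Other proteins that carriers depend on or share the membranes with were counted in the same limma fit. Of 10 genes for the import of carriers into the inner membrane, 3 were lower, Timm10 (log2 fold change -0.37, adjusted p = 3.17e-05), Timm8b (-0.26) and Timm8a1 (-0.11), and 1 was higher, Timm10b (0.35, adjusted p = 0.000565). Of this list 40% passed, near the 40.1% of all genes, with 30% lower and 10% higher beside 11.8% and 28.4%. The median of the list was -0.058, beside 0.093 over all genes. These small proteins escort carriers across the space between the membranes. Timm22, the channel that inserts carriers, was at 23.4 ± 2.19 FPKM in CON against 24.2 ± 1.66 FPKM in HG and did not pass (adjusted p = 0.557).

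Of 19 inner membrane transporters of other families, 4 were lower and 3 higher, with a median of -0.03. Of this list 36.8% passed, beside 40.1% of all genes, with 21.1% lower and 15.8% higher. The lower ones included both subunits of the mitochondrial pyruvate carrier, Mpc1 (112.5 ± 8.23 FPKM in CON, 67 ± 3.57 in HG, log2 fold change -0.75, adjusted p = 1.68e-06) and Mpc2 (-0.46). Letm1, an ion exchanger, followed at -0.27. Those higher included Sfxn3 (0.45) and Sfxn1 (0.35), of the sideroflexin family of serine carriers. All 4 outer membrane genes listed, the channels Vdac1, Vdac2 and Vdac3 and the cholesterol-binding protein Tspo, were lower, with log2 fold changes from -0.46 for Tspo to -0.17 for Vdac2. Among all genes, 11.8% were lower.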

How the data were processed

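RNA of fetal hearts was sequenced from stranded mRNA libraries, 5 CON and 5 HG. The labels' processing notes name fastp, HISAT2, HTSeq, R 3.2.0 and build mRatBN7.2. The deposited FPKM values, 1 table for all genes, were made by the authors. Reads per gene were recovered from these values for all 18025 genes within 0.03 reads of a whole number, which gave the depth and a comparison fit; read numbers carry counting error, and FPKM of few reads are imprecise.

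For 14542 genes averaging 0.1 FPKM or more, log2(FPKM + 0.1) was compared with limma 3.58.1 (R 4.3.3, trend on expression, two-sided, Benjamini-Hochberg over all genes). Fold changes of low genes are understated by the pseudocount. Passing meant an adjusted p under 0.05. Ratios of carrier pairs were compared by exact permutation (scipy 1.17.1). The 8 largest increases and decreases among carriers that passed, preset carriers and both genes of each pair were described with values. Alternatives were another pseudocount, filter, scaling, covariate or block, and each library left out. The fit was tested on simulated data. Of the genes counted, 2 are not reported here by name. Promoters were matched by NCBI gene number. Members and lists were chosen with earlier results of these data known.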

Additional observations from a re-analysis of the deposited data

Results flagged for a closer look

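A single library lay far from the other 4 of its group (Dixon's gap over range above 0.71) in 8 of 100 groups examined, where chance gives about 1 in 20. For Slc25a10, CON 2 was at 7.47 FPKM and the other CON libraries at 6.87 to 6.98. For Slc25a12, HG 2 was at 30.7 FPKM and the others at 27.8 to 28.6. For Slc25a32, HG 4 was at 4.36 FPKM and the others at 4.82 to 5. For Slc25a44, HG 2 was at 7.33 FPKM and the others at 6.29 to 6.57. Slc25a10 and Slc25a12 passed without overlap between the groups, and Slc25a32 and Slc25a44 did not pass.

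For Slc25a33, CON 5 was at 5.26 FPKM and the other CON libraries at 6.09 to 6.3, and the same library stood out in the ratio of Slc25a33 to Slc25a36, at 0.418 against 0.501 to 0.532. For Slc25a40, CON 4 was at 9.4 FPKM and the others at 6.6 to 7.27. For Slc25a52, CON 2 was at 0.349 FPKM, or 12 reads, and the others at 0 to 0.0602 FPKM, or 0 to 2 reads.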

How the results depend on the processing

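Of the 23 carriers that passed, 17 (12 lower and 5 higher) stayed past the threshold in all 21 alternatives, and none of the 23 changed direction in any of them. Higher carriers numbered 5 to 9, lower ones 13 to 16 and changes over 2-fold 0 to 1 when each library was left out in turn. HG 2 gave the 5. The count over 2-fold was also 0 with a pseudocount of 1 and with a filter at 1 FPKM, which removes Slc25a52. Scaling by median-of-ratios or quantiles gave 6 higher and 17 lower, and leaving out hemoglobin genes 10 and 13. A fit with Y chromosome genes as covariate gave 8 and 15. Replicate numbers did not pair the libraries (correlations of same-numbered deviations from -0.126 to 0.108, and 0 of 5 matched its own number best). A block on them gave 21 calls, 7 higher and 14 lower, losing Slc25a46 (adjusted p = 0.057) and Slc25a36l1 (0.0896). The pair ratios could not pass under the block, since the smallest exact p of 5 paired differences is 0.0625.

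With each library left out, the difference in log2 ratio ran from -0.32 to -0.26 for the ADP/ATP carriers, -0.802 to -0.58 for the pyrimidine carriers and -0.46 to -0.33 for the coenzyme A carriers.
Of the carriers that did not pass, some did so in other settings: Slc25a45 in 5, Slc25a14 in 4, Slc25a13 and Slc25a25 in 3 each and Slc25a40 in 2. Only carriers that did not pass changed sign, all of them close to 0 in the reported fit. Under median-of-ratios and quantile scaling these were Slc25a15 (-0.054 and -0.078), Slc25a24 (-0.037 and -0.037), Slc25a32 (-0.059 and -0.073), Slc25a35 (-0.021 and -0.018) and Slc25a37 (-0.029 and -0.031), and under median-of-ratios also Slc25a20 (-0.047). Without hemoglobin genes they were Slc25a2 (0.021), Slc25a22 (0.015) and Slc25a44 (0.0029), and Slc25a2 also with a pseudocount of 1 (0.00103) and the Y covariate (0.0019). With each library left out, Slc25a2 ran from -0.072 to 0.056, Slc25a6 from -0.29 to 0.082, Slc25a15 from -0.0072 to 0.056, Slc25a22 from -0.037 to 0.0202, Slc25a24 from -0.032 to 0.099, Slc25a32 from -0.028 to 0.064, Slc25a35 from -0.031 to 0.13 and Slc25a44 from -0.059 to 0.0019. The causes were not tested. Carriers under 1 FPKM rest on few reads, which limits what could be detected for them.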
